A study of Mus musculus with 36 samples.

Results

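Small nucleolar RNA host genes are genes of RNA polymerase II whose introns carry small nucleolar RNAs (snoRNAs). Some of them code for proteins, and the spliced RNA of others codes for none. The 8 described here are Gas5, Zfas1, Snhg1, Snhg3, Snhg6, Snhg8, Snhg12 and Snhg18, out of 49980 genes with a position in the mouse RefSeq table of assembly GRCm38.p6 (mm10), and RefSeq classes all 8 as long noncoding RNA genes. They were chosen by name, with earlier results of these lists known. For each, the summits of the TATA-binding protein (TBP) within 500 bp of either end of the gene were taken from 4 peak lists, and a gene with such a summit is called bound. The series profiled TBP and TBP-associated factors (TAFs) by CUT&RUN, in which a nuclease tethered to an antibody releases the DNA around a chromatin protein, in 36 libraries of mouse embryonic stem (ES) cells. RT7 cells have the genotype R26CreERT2/+;Taf7flox/flox and RT10 cells the genotype R26CreERT2/+;Taf10flox/flox. Both lines thus carry 1 allele of a tamoxifen-inducible Cre recombinase at the Rosa26 locus, in treated and control cells alike, and were grown in serum medium with leukaemia inhibitory factor and the kinase inhibitors CHIR99021 and PD0325901. From day 1 to day 3 they received ethanol (EtOH) or 4-hydroxytamoxifen (4-OHT), which induces the deletion. Each of the 4 lists, 1 per line and treatment, stands for 2 TBP libraries and their matching IgG library. Whether either line is 1 clone is not stated in the labels.

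Once a host transcript is spliced, the freed intron is trimmed to the snoRNA. Box C/D snoRNAs (Snord genes) guide ribose methylation and box H/ACA snoRNAs (Snora genes) guide pseudouridylation, chiefly of ribosomal RNA, and some are needed to cut the ribosomal RNA precursor. Many host genes share with ribosomal protein genes a start site within a run of pyrimidines, known as a 5′ terminal oligopyrimidine tract, and the spliced RNAs of several of them are decayed quickly on ribosomes. TBP binds the TATA box shortly upstream of a start site, and TFIID, the complex of TBP and TAFs, brings it to promoters of RNA polymerase II with or without a TATA box. TAF7 and TAF10 are both subunits of TFIID, and TAF10 is also part of the SAGA complex.

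Since each group has 1 list, contrasts of EtOH with 4-OHT have no replicate check, and no p-values were computed. The lists held 2666 summits in RT7 EtOH, 1379 in RT7 4-OHT, 3102 in RT10 EtOH and 2188 in RT10 4-OHT, and the read depth behind them is unknown. Scores are the authors' −log10 q-values at the summit and are used to place a summit within its own list. Scores or ranks set side by side from 2 lists are therefore not a measured change. Where a gene lacks a summit, the peak caller reported none, which is not a measurement of absence. The deleted subunits themselves were not analysed here, so the deletion was not checked.

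The sequences below are the starts of the host genes, from RefSeq on GRCm38.p6, shown because all summits at these genes but 1 lay within 200 bp of an annotated start. Promoter sequences were found for 7 of the 8 genes, with 2 annotated starts for Gas5. Each window runs 5′ to 3′ on the gene's strand from 100 bases before the start to 50 bases from the start on. Capitals mark any TATAAA or TATATA, searched on both strands, and the unbroken run of C and T that covers the start base, the 101st letter.
Gas5 inner start, chr1:161035066-161035215, plus strand: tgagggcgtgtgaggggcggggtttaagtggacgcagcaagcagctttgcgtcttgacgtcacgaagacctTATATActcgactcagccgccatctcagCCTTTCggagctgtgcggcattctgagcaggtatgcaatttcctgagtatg
Gas5 outer start, chr1:161034501-161034650, plus strand: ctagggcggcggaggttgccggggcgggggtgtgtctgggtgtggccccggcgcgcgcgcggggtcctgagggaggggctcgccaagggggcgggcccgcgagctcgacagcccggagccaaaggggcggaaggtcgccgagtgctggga
Snhg1, chr19:8723387-8723536, plus strand: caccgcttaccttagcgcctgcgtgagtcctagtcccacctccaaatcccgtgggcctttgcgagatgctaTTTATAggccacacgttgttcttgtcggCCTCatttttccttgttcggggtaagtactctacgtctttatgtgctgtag
Zfas1, chr2:167062834-167062983, plus strand: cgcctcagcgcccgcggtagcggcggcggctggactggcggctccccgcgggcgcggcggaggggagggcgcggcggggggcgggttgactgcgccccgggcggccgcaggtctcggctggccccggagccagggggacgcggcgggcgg
Snhg18, chr15:32244613-32244762, minus strand: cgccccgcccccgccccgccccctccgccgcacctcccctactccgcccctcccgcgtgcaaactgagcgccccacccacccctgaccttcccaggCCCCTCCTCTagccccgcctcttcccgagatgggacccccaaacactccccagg
Snhg8, chr3:123508287-123508436, minus strand: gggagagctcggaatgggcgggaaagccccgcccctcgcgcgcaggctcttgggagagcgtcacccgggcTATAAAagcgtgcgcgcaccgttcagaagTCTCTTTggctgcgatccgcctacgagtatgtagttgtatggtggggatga
Snhg3, chr4:132353637-132353786, minus strand: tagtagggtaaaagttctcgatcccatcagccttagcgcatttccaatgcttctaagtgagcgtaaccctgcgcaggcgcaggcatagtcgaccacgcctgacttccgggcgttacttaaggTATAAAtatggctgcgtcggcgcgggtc
Snhg12, chr4:132308578-132308727, plus strand: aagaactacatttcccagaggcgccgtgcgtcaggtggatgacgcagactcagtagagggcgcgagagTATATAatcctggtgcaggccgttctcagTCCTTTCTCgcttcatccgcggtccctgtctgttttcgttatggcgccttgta

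The inner start of Gas5 and the starts of Snhg8 and Snhg12 had both features. TATATA reads the same on both strands. TATATA began 29 bases before the inner Gas5 start and 32 bases before the Snhg12 start, and TATAAA 30 bases before the Snhg8 start. The C and T runs over these starts were 6 (Gas5), 9 (Snhg12) and 7 (Snhg8) bases long. Snhg1 had TATAAA on the other strand, so that TTTATA reads 29 bases before its start, and a run of 4 bases. Snhg3 held TATAAA 23 bases into the transcript instead, and its annotated start base is not C or T. Snhg18 had the longest run, 10 bases, without either TATA sequence, and Zfas1 and the outer Gas5 start had neither feature.

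Of the 8 promoters of these genes, 4 thus had TATAAA or TATATA starting 35 to 25 bases before the start, a sequence placed there in 2.73% of all 32851 promoters of the RefSeq table. The share was 4.54% to 7.97% among promoters with a TBP summit within 500 bp, depending on the list. Anywhere in the 300 bases of a promoter, either sequence occurred in 5 of the 8, and in 17.1% of all promoters and 15.1% to 21.2% of those near a summit. A C and T run of at least 6 bases over the start base was found in 4 of the 8, against 7.25% of all promoters and 5.6% to 6.62% of those near a summit. The window of 35 to 25 bases and the run of 6 were set after these sequences had been seen, so the shares are descriptions. A match shows the letters only and not a site in use.

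Other short motifs were searched in the same way on both strands over the whole promoter. GGGCGG, the core of the binding site of Sp1, was present in 6 of the 8 promoters, and in 35.7% of all promoters and 66.4% to 70.5% of those near a summit. It occurred 9 times at Zfas1, whose promoter was 83% G and C, against a median of 52.7% over all promoters. CCAAT, the core of the NF-Y site, was found at Snhg3 and Snhg8, and in 37.4% of all promoters and 52.2% to 53.6% of those near a summit. CCGGAAG, a core of ETS factor sites, was found at Snhg3 alone, against 8.86% of all promoters and 14.6% to 16.8% of those near a summit. The letters of CACGTG, the E-box, were in none of the 8 windows, and in 7.15% of all promoters and 16.1% to 21.2% of those near a summit.

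TBP summits were present at 7 of the 8 host genes in the EtOH lists of both lines, at 4 in RT7 4-OHT and at 6 in RT10 4-OHT. Gas5, Zfas1, Snhg1 and Snhg12 were bound in all 4 lists. Snhg8 and Snhg18 lacked a summit in RT7 4-OHT only, Snhg3 lacked one in both 4-OHT lists, and Snhg6 had none in any list. Among all 49980 genes, 3.3% were bound in RT7 EtOH, 1.94% in RT7 4-OHT, 3.69% in RT10 EtOH and 2.55% in RT10 4-OHT. Among long noncoding RNA genes alone, the class of these 8, the shares in the same order were 1.71%, 0.966%, 2.04% and 1.26% of 12727. The 8 genes were proposed with earlier results of these lists known, so their higher share is not evidence about such hosts in general.

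**Figure D1:**
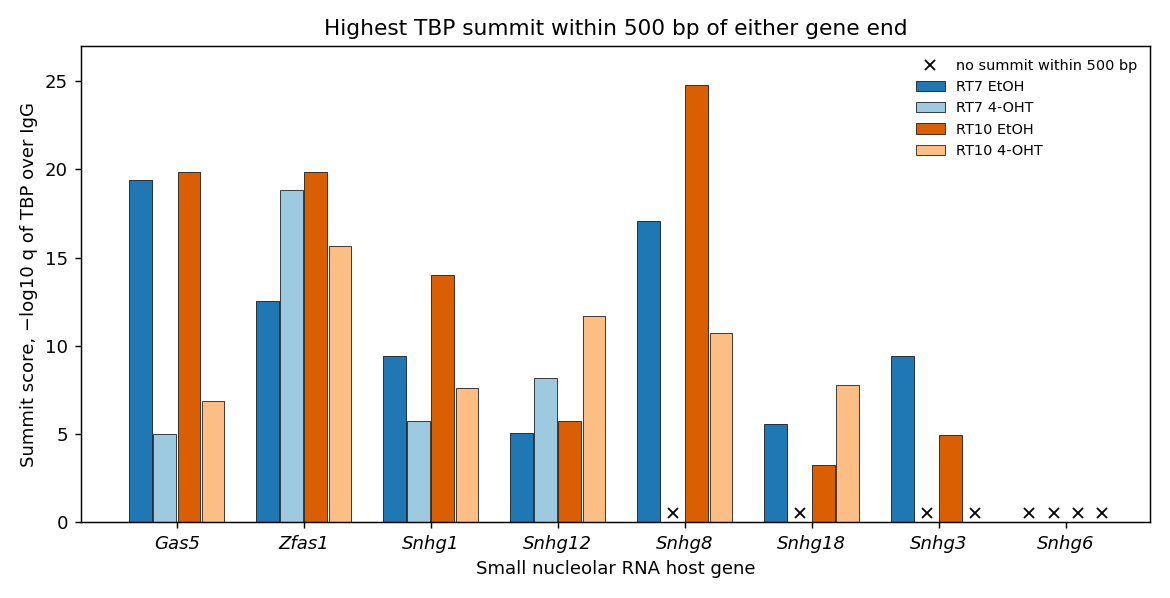
Bars give the score (−log10 q of TBP over IgG, vertical axis) of the highest summit within 500 bp of either end of each host gene (horizontal axis) in the 4 lists, 1 list per group and so without error bars. Crosses mark no summit: Snhg6 has 4, Snhg3 has 2, in the 4-OHT lists, and Snhg8 and Snhg18 have 1 each, in RT7 4-OHT.

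Of the 7 host genes bound in RT7 EtOH, 3 had no RT7 4-OHT summit within 500 bp of either end, against 48.3% of all genes and 49.8% of long noncoding RNA genes bound in RT7 EtOH. In RT10 it was 1 of 7, against 43.4% and 46.7%. No host gene was bound in 4-OHT without EtOH, in RT7 (0 of 4, against 12.1% of all and 11.4% of long noncoding RNA genes bound in RT7 4-OHT) or in RT10 (0 of 6, against 18.1% and 13.8%). Snhg3 was the 1 of 7 genes bound in both EtOH lists without a 4-OHT summit in either line, where the share was 20% of all such genes and 22.3% of the long noncoding ones. The genes bound throughout were 4 of 7, against 54.2% and 49.1%. The RT10 EtOH summit of Snhg3 was in the lower 50% of its list. With all lists shortened to the length of the shortest, or with the higher-scoring 50% of each, Snhg3 was not bound in RT10 EtOH and 0 genes there lacked a 4-OHT summit. With the RT10 EtOH list cut only to the length of the RT10 4-OHT list, Snhg3 stayed the 1 gene without a 4-OHT summit. At scores of at least 10 Snhg3 was bound in neither EtOH list. With all lists shortened to the shortest, Snhg12 in RT7 and Snhg12 and Snhg18 in RT10 were bound in 4-OHT and not in EtOH.

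Genes placed lower in the EtOH list more often had no 4-OHT summit. Among all genes whose RT7 EtOH summit lay in the highest-scoring 25% of the list, 13.9% had none, and in the next 3 bands of 25% the shares were 54.3%, 76.9% and 80.4%. In RT10 they were 12.3%, 46.5%, 69.4% and 71.5%. In RT7 EtOH, Gas5, Zfas1 and Snhg8 were in the top band, and of these Snhg8 lacked a 4-OHT summit. Snhg1, Snhg3 and Snhg18 were in the second band, and Snhg3 and Snhg18 lacked one. Snhg12, in the third band, had one. In RT10 EtOH, Gas5, Zfas1, Snhg1 and Snhg8 were in the top band and had a 4-OHT summit, as had Snhg12 in the third and Snhg18 in the lowest band. Snhg3, in the third, had none.

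Among hosts of box C/D snoRNAs, Gas5 (growth arrest specific 5; chromosome 1, 161034601 to 161038539, plus strand) holds 8 snoRNA genes in the RefSeq table, Snord47 among them. Its summits scored 19.4 in RT7 EtOH (rank 301), 5.02 in RT7 4-OHT (rank 736), 19.9 in RT10 EtOH (rank 358) and 6.85 in RT10 4-OHT (rank 931). The EtOH summits stood in the top 11.3% and 11.5% of their lists, and the 4-OHT summits at 53.4% and 42.6% from the top. All 4 summits fell within 25 bp of each other, at positions 161035027 to 161035052. They lay 426 to 451 bp past the outer annotated start and 114 to 139 bp before the inner start at 161035166, the one with TATATA and the C and T run shown above, 565 bp further in. Zbtb37, a zinc finger protein gene on the opposite strand, has its upper end at 161034864, 163 to 188 bp from the summits, so they lay between that end and the inner Gas5 start. Under a limit of 250 bp from a gene end Gas5 was bound in no list. Gas5 is also the host gene nearest to the limit of 500 bp, and the first summit beyond that limit at any of the 8 genes was 1506 bp past the other end of Gas5 in RT10 EtOH, with a score of 3.13.

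Snhg1 (chromosome 19, 8723487 to 8726326, plus strand) also holds 8 snoRNA genes, Snord22 among them. Its highest summits scored 9.42 in RT7 EtOH (rank 781), 5.76 in RT7 4-OHT (rank 623), 14.0 in RT10 EtOH (rank 592) and 7.61 in RT10 4-OHT (rank 852). In 3 lists these lay 138 to 176 bp before the start, and in RT10 4-OHT the summit lay 62 bp after it. A further RT7 EtOH summit of score 3.01 lay 327 bp after the start, at 8723814, and was the only second summit at any of the 8 genes. Slc3a2, which encodes the heavy chain of amino acid transporters at the cell surface, is transcribed the other way from an end 117 bp upstream of Snhg1. The summits before the Snhg1 start lay 20 to 58 bp from that Slc3a2 end, nearer to it than to Snhg1, and the RT10 4-OHT summit lay 180 bp from it.

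Zfas1 (chromosome 2, 167062934 to 167065862, plus strand) holds 3 snoRNA genes, among them Snord12. It scored 12.6 in RT7 EtOH (rank 566), 18.9 in RT7 4-OHT (rank 132), 19.9 in RT10 EtOH (rank 358) and 15.7 in RT10 4-OHT (rank 333). Zfas1 was the host gene with the narrowest range of places among those in all 4 lists, from the top 9.57% to the top 21.2%, and the only one in the highest-scoring 25% of each. Its summits lay 95 to 121 bp after the start in 3 lists and 37 bp before it in RT10 4-OHT. Znfx1, which encodes a zinc finger helicase-like protein, starts on the opposite strand and overlaps the first 82 bp of Zfas1. The summits lay 14 to 118 bp from that Znfx1 end, so Zfas1 and Znfx1 shared every summit.

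Snhg18 (chromosome 15, 32240568 to 32244662, minus strand) holds 1 snoRNA gene, Snord123. Its summits scored 5.57 in RT7 EtOH (rank 1324), 3.23 in RT10 EtOH (rank 2406) and 7.79 in RT10 4-OHT (rank 827). The RT10 EtOH summit stood at 77.6% from the top, the lowest place of any host gene's highest summit, and the RT10 4-OHT summit at 37.8%. The 3 summits fell within 52 bp, 84 to 136 bp after the start. Sema5a, a semaphorin gene, is transcribed away from Snhg18 with 150 bp between them, and the summits lay 235 to 287 bp from its end. In RT7 4-OHT the nearest summit was 2323 kb away.

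Snhg6 (chromosome 1, 9942025 to 9944118), host of Snord87, was the 1 gene of the 8 with no summit within 500 bp of either end in any list. Its nearest summits were 93.9 kb away in both EtOH lists, 3716.5 kb in RT7 4-OHT and 1359.9 kb in RT10 4-OHT. No peak was thus called anywhere near this host in these 4 lists.

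Both hosts of box H/ACA snoRNAs alone had summits in both EtOH lists. Snhg8 (chromosome 3, 123507552 to 123508336, minus strand) is the shortest of the 8 genes, 785 bp, and holds Snora24. Its summits scored 17.1 in RT7 EtOH (rank 378), 24.8 in RT10 EtOH (rank 260) and 10.7 in RT10 4-OHT (rank 566). The score of 24.8, in the top 8.38% of its list, was the highest of any host gene in any list. The EtOH summits lay 92 and 156 bp before the start, on the side of the TATAAA sequence, whereas the RT10 4-OHT summit lay 139 bp after it and 131 bp from Snora24. The RT10 EtOH and 4-OHT summits were thus 295 bp apart, and with partners counted only up to 250 bp Snhg8 had no matching 4-OHT summit in RT10. In RT7 4-OHT the nearest summit was 1930.2 kb away.

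Snhg3 (chromosome 4, 132351933 to 132353686, minus strand) holds Snora73a and Snora73b, members of the U17 family, which takes part in cutting the ribosomal RNA precursor. It scored 9.42 in RT7 EtOH (rank 781) and 4.93 in RT10 EtOH (rank 1786), 29.3% and 57.6% from the top. These scores were shared by 74 and 142 summits of their lists, so the ranks are coarse. The summits lay 69 and 19 bp before the annotated start, the latter the smallest distance of any summit from its own host's start. Neither 4-OHT list had a summit near Snhg3. Its nearest 4-OHT summit was in both lines that of Snhg12, 43.2 kb away in RT7 and 43.1 kb in RT10.

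Snhg12 (chromosome 4, 132308678 to 132311024, plus strand), which holds both kinds of snoRNA gene (Snora16a, Snora44, Snora61 and Snord99), lies 40.9 kb from Snhg3. It scored 5.08 in RT7 EtOH (rank 1511), 8.15 in RT7 4-OHT (rank 421), 5.74 in RT10 EtOH (rank 1661) and 11.7 in RT10 4-OHT (rank 511). In the EtOH lists it was in the lower 50% (56.7% and 53.5% from the top), and in the 4-OHT lists at 30.5% and 23.4%. Gas5 and Snhg1 were placed nearer the top in EtOH than in 4-OHT in both lines, and Snhg12 the other way round. The 4 summits fell within 44 bp, 78 to 122 bp after the start. No end of a protein-coding gene lay within 500 bp of them.

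**Figure D2:**
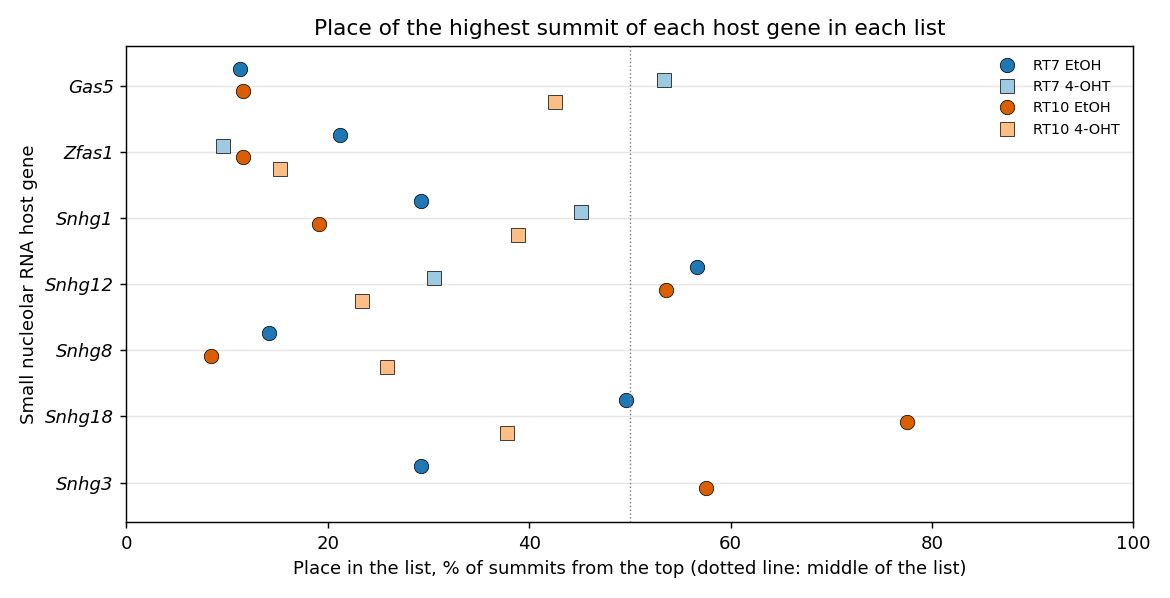
Each point is the place of a host gene's highest summit within 500 bp in 1 list, as the percentage of summits from the top (horizontal axis, 0 is the highest score), for the 7 genes with a summit (vertical axis). Circles are EtOH and squares 4-OHT lists. Gas5 and Snhg1 have their circles left of their squares, and Snhg12 has them on the right.

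The 25 summits at the 7 bound genes lay 19 to 327 bp from the host's own nearest annotated start, 12 before it and 13 after it. A site called in several lists is counted in each of them, so these are not 25 separate sites. For all summits near a RefSeq start, the nearest start of any gene was used. On that measure 69% lay before the start in RT7 EtOH, 62.7% in RT7 4-OHT, 67.5% in RT10 EtOH and 65.9% in RT10 4-OHT. The medians were 90 to 103 bp before it. Most summits at Zfas1 and Snhg1 lay nearer to the end of Znfx1 or Slc3a2 than to the host's start. The host counts and these shares are therefore unlike measures. Summits at Gas5 and Snhg3 lay before the host's nearest start in every list that had one, and those at Snhg12 and Snhg18 after it. At Zfas1, Snhg1 and Snhg8 the side differed between lists, and in each case the RT10 4-OHT summit was on the other side from the highest summits of the other lists. None of the 25 summits fell inside a snoRNA gene, and none was at the 3′ end of a host.

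**Figure D3:**
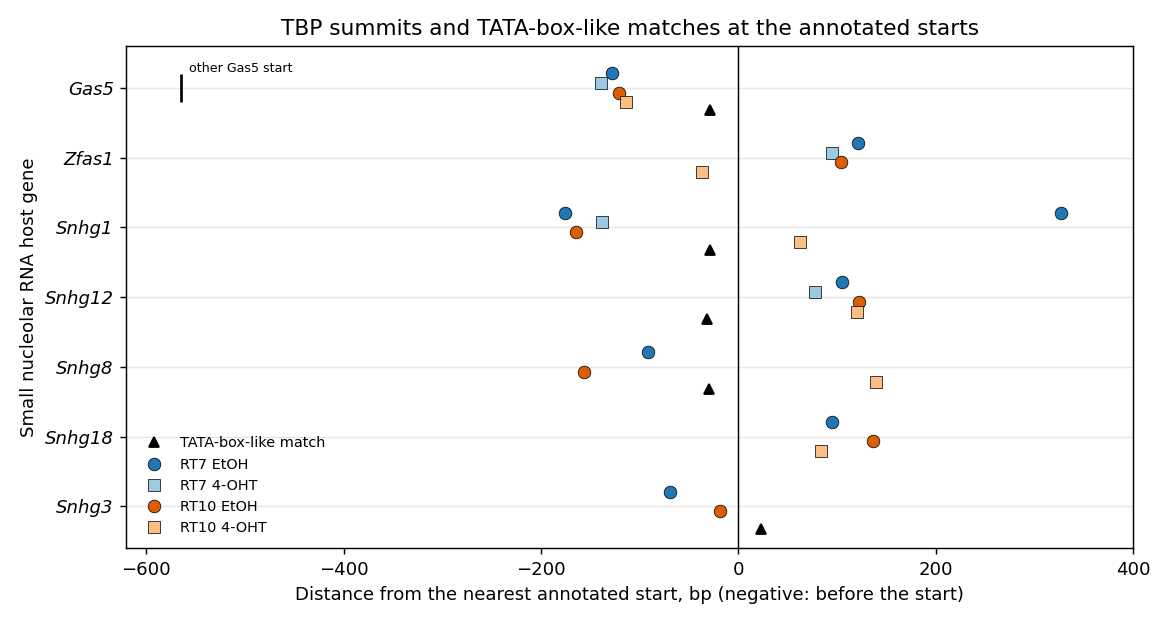
Distance of each TBP summit from its host's nearest annotated start in bp (horizontal axis, negative before the start). The 7 host genes with a summit are on the vertical axis, and points are coloured by list. Triangles mark TATAAA or TATATA. Summits lie 114 to 139 bp before the inner Gas5 start, drawn at 0, and 78 to 122 bp after the Snhg12 start, while Snhg8 has summits on both sides.

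Summits at 4 of the 7 bound genes, Gas5, Zfas1, Snhg1 and Snhg18, also lay within 500 bp of the end of a protein-coding gene transcribed the other way. Ends of snoRNA genes nested in Gas5, Snhg1, Zfas1 and Snhg8 lay within the same distance of some summits. Whether TBP there served the host, its neighbour or both cannot be told apart in these lists. At the other 3, Snhg3, Snhg8 and Snhg12, no protein-coding gene end was that near. Of the 4 genes with such a neighbour, 3 were bound in all 4 lists and Snhg18 in 3. Of the 3 without, Snhg12 was bound in 4 lists, Snhg8 in 3 and Snhg3 in 2. The same split was not made for all genes, and a link with the neighbour was not tested.

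For the genes bound in all 4 lists, the gene with the most similar places was looked for among 690 genes bound in all 4 that shared no summit with a host. The measure was the mean absolute difference in place over the 4 lists. It was the tRNA gene n-TCgca57 for Gas5 (2.17 percentage points), the zinc finger gene Zbtb3 for Snhg1 (2.02), Pdia4, a protein disulphide isomerase gene, for Zfas1 (3.13), and the zinc finger gene Zfp27 for Snhg12 (4.69). n-TCgca57 scored 19.2, 4.91, 22.3 and 5.96 in RT7 EtOH, RT7 4-OHT, RT10 EtOH and RT10 4-OHT, beside the 19.4, 5.02, 19.9 and 6.85 of Gas5. With 4 lists behind each likeness, it describes these lists only.

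Other genes of the snoRNA pathway were counted in the same way, without a test of their difference from the hosts above. Of 11 further Snhg genes, 3 were bound in RT7 EtOH, 3 in RT7 4-OHT, 2 in RT10 EtOH and 3 in RT10 4-OHT. Snhg9 scored 15.9, 4.91, 13.4 and 26.9 in RT7 EtOH, RT7 4-OHT, RT10 EtOH and RT10 4-OHT. Snhg5, a box C/D host, scored 2.23, 6.71, 5.45 and 22.8 in the same order, and Snhg7 8.42, 3.10 and 1.39, without a summit in RT10 EtOH. No further Snhg gene bound in EtOH lacked a 4-OHT summit, in either line. Snhg4, Snhg10, Snhg11, Snhg14, Snhg15, Snhg16, Snhg17 and Snhg20 had no summit in any list.

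Protein-coding genes that hold a named snoRNA gene numbered 72, of which 22 were bound in RT7 EtOH and 14 in RT7 4-OHT, and 23 in RT10 EtOH and 18 in RT10 4-OHT. Of those bound in EtOH, 13 (59.1%) had a 4-OHT summit in RT7 and 16 (69.6%) in RT10, beside 4 of 7 (57.1%) and 6 of 7 (85.7%) of the host genes described here. Among all protein-coding genes, 5.32% were bound in RT7 EtOH, 2.74% in RT7 4-OHT, 5.96% in RT10 EtOH and 3.87% in RT10 4-OHT. Of all protein-coding genes bound in EtOH, 55.1% in RT7 and 48.4% in RT10 lacked a 4-OHT summit. Among the 72 hosts it was 9 of 22 and 7 of 23. Of all protein-coding genes bound in 4-OHT, 12.8% and 20.4% had no EtOH summit, and of the hosts 1 of 14 and 2 of 18. Of the protein-coding genes bound in both EtOH lists, 23.9% had no 4-OHT summit in either line and 48.5% had one in both. Among the 72 hosts, the highest in RT7 EtOH were Hspa8, a constitutive heat shock chaperone gene (41.7), the ribosomal protein genes Rpl10 (34.7) and Rpl32 (34.3), and Rack1, which encodes a scaffold protein of the small ribosomal subunit (24.9), and all 4 were bound in all 4 lists. Of the 72 hosts, 12 were bound in all 4 lists. Ncl, which encodes the nucleolar protein nucleolin, scored 7.45 in RT7 EtOH and 8.23 in RT10 EtOH and had no 4-OHT summit. Eif5 (12.2 and 10.8) and Ncapd2 (7.57 and 5.84) were likewise bound in both EtOH lists without a 4-OHT summit in either line.

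Of 12 genes for proteins of the snoRNA particles, 3 were bound in each EtOH list and 0 in each 4-OHT list. Fbl, which encodes the methyltransferase fibrillarin, scored 5.75 in RT7 EtOH and 1.41 in RT10 EtOH, and Nhp2, a subunit of H/ACA particles, 6.49 and 2.04. Dkc1, the pseudouridine synthase gene, was bound in RT7 EtOH alone (2.23) and Nop56, a C/D particle subunit gene, in RT10 EtOH alone (5.45). These EtOH summits ranked between 1165 and 2343 of 2666 in RT7 and between 1699 and 3068 of 3102 in RT10, outside the highest-scoring 25% in both lines. In the bands that held them, 54.3% and 80.4% of all genes in RT7 and 69.4% and 71.5% in RT10 had no 4-OHT summit.

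Ribosomal protein genes had 30 of 87 members bound in RT7 EtOH and 34 in RT10 EtOH, against 5.32% and 5.96% of all protein-coding genes. The 87 were taken by gene symbol and include genes named as like a ribosomal protein, such as Rpl7l1, bound in both EtOH lists only. Of those bound in EtOH, 18 in each line had a 4-OHT summit (60% and 52.9%). None was called at 12 of 30 in RT7 and 16 of 34 in RT10. Of all protein-coding genes bound in EtOH, 55.1% and 48.4% lacked one. Among the 87, Rps26 (51.8), Rpl10 (34.7) and Rpl32 (34.3) were highest in RT7 EtOH. Of the 87, 24 are also among the protein-coding snoRNA hosts, or 27.6% of the one list and 33.3% of the other. RNA polymerase II small nuclear RNA genes, U3 snoRNA genes included, were bound at 11 of 14 in every list, led in RT7 EtOH by Rnu2-10 (35.8), Rnu5g (29.4) and Rnu3b1 (19.4). Among all genes, 1.94% to 3.69% were bound, depending on the list. Of the 11 bound in EtOH, 0 lacked a 4-OHT summit in either line, against 48.3% (RT7) and 43.4% (RT10) of all genes bound in EtOH. U3 is a box C/D snoRNA with its own promoter. Its 5 genes with a summit in the lists, Rnu3a, Rnu3b1, Rnu3b2, Rnu3b3 and Rnu3b4, were bound in all 4. The Rnu3b copies are near identical, and the sources used here do not say how reads were assigned among them.

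**Figure D4:**
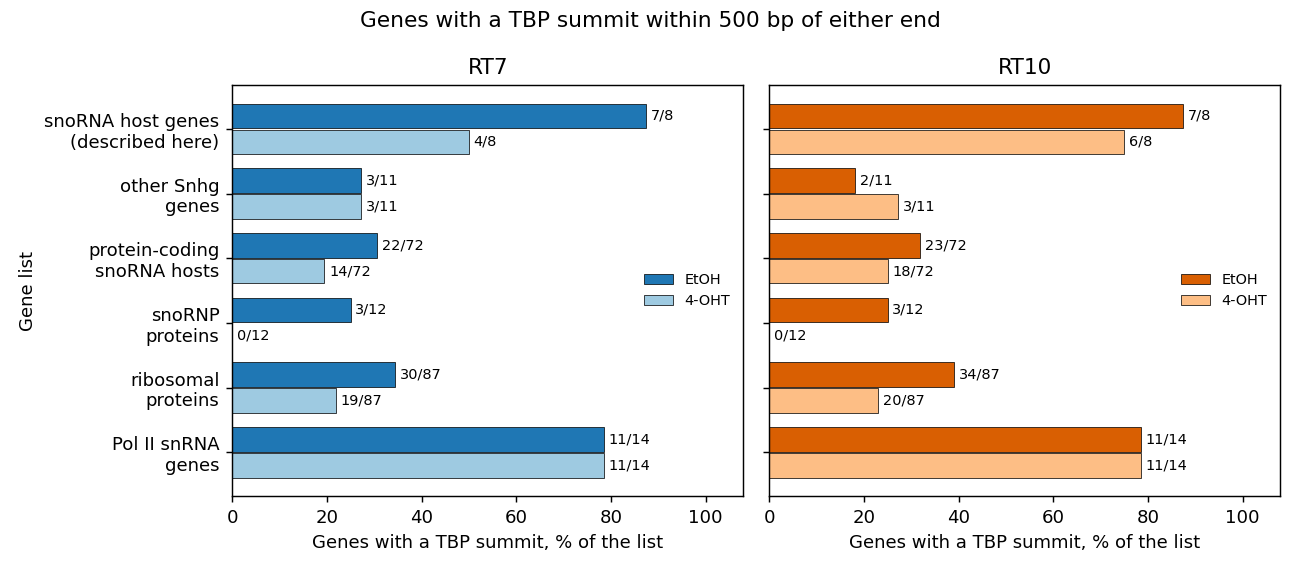
Bars give the percentage of genes (horizontal axis) bound by TBP in each gene list (vertical axis), EtOH dark and 4-OHT light, for RT7 on the left and RT10 on the right, with counts beside the bars. The host genes described here go from 7 of 8 to 4 in RT7 and to 6 in RT10, the snoRNP protein genes from 3 of 12 to 0 in both lines, and the snRNA genes stay at 11 of 14.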

How the data were processed

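Per the labels, TBP CUT&RUN was made in RT7 and RT10 mouse ES cells with 2 libraries per line and treatment and 1 IgG library each. The deposited lists give MACS2 summit positions on mm10 with −log10 q-values of TBP over IgG, made by the authors; the unit follows from the MACS2 layout and from lowest scores of 1.30 to 1.40. Per the submitters' processing notes, the tools were cutadapt 4.0, Bowtie2 2.4.4, SAMtools 1.15.1, bedtools, deepTools and MACS2 2.2.7.1; parameters, pooling of libraries and use of the yeast spike-in DNA are not given in the sources used here. A list carries no replicate number, so it was taken as the value of its group. In 2 IgG libraries, by title RT7 EtOH and RT10 4-OHT, the treatment label disagrees with that title, by which they were grouped.

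Gene positions and promoter sequences are from RefSeq GRCm38.p6, the assembly of mm10. Strand came from the promoter table. A gene was bound with a summit within 500 bp of either end, and the highest-scoring one was used. Equal scores share the best rank. The members and lists were chosen with earlier results of these data known. Genes named are the 8 members, the genes sharing their summits, the most similar gene of each member bound in all lists, and up to 4 genes per list by EtOH score; other genes of those lists were picked for mention with their values in view. Alternatives were other distances, annotated starts only, score minima, and lists of equal length. Calculations used Python 3.11.15, NumPy 2.4.6 and pandas 2.3.3, with matplotlib 3.10.9; the search was tested on simulated data.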

Additional observations from a re-analysis of the deposited data

How the results depend on the processing

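No paired analysis was possible because the summit lists carry no replicate number and no test was run; for the same reason no library could be left out. Read depth is unknown, so its effect on a missing summit cannot be stated. Of 82 alternative values, 56 stayed within 1.5 times the count at 500 bp. Not all of these could move. Between 500 and 2000 bp from an end, summits occurred only at Gas5 in RT10 EtOH, where it was already bound. The counts at 1000 and 2000 bp thus repeat those at 500 bp. Both ways of taking ties gave equal counts. The count of RT7 EtOH genes without a 4-OHT summit was 2 to 3 under all 14 alternatives, but the genes were not always the same. At 500 bp they were Snhg3, Snhg8 and Snhg18. At scores of at least 10 they were Gas5 and Snhg8, and in the higher-scoring 50% Gas5, Snhg3 and Snhg8. Within 100 bp of an end, 3, 2, 1 and 3 genes were bound in RT7 EtOH, RT7 4-OHT, RT10 EtOH and RT10 4-OHT, and 2 (RT7) and 3 (RT10) were bound in 4-OHT alone, as summits then fall on either side of the limit. Scores of at least 10 left 3, 1, 4 and 3 bound genes, and in RT10 2 in EtOH alone and 1 in 4-OHT alone. In the higher-scoring 50% of each list, RT10 EtOH had 4 bound genes, and 1 gene in RT7 and 2 in RT10 were bound in 4-OHT alone, with 0 in RT10 EtOH alone, as Snhg3 was no longer bound there. With all lists shortened to the shortest the same 4 counts were 4, 1, 2 and 0, however ties were taken. With partners sought around the EtOH summit, 4 (100 bp) or 2 (250 bp) RT10 genes had none in 4-OHT. At 250 bp from an end Gas5 was bound in no list. Counted from annotated starts, all calls were those at 500 bp, but Snhg6, for which no promoter was found, could not be called there.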
